A study of Homo sapiens with 6 samples.

Results

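The genes of the mitochondrial ribosomal proteins were examined in the colon cancer cell line HCT-8, of human origin. They were chosen by symbol, as the annotated genes named MRPL or MRPS followed by a number (with an A, B or C after some MRPS numbers), and each was represented by its brightest array feature. This gave 73 of the 14884 genes tested, 48 MRPL genes of the large subunit and 25 MRPS genes of the small subunit. Each subunit name here is the one in the symbol, although MRPS18A and MRPS30 are known to sit in the large subunit by structure. RefSeq lists 77 protein-coding symbols of this form, and those without a feature in the annotation used were not analysed here.

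The series holds 6 Affymetrix arrays of total RNA, each with 1 colour: 3 carry the label TRIB3-shRNA and the other 3 Control-shRNA. TRIB3-shRNA cells carried a plasmid for a short hairpin RNA against the Tribbles pseudokinase gene TRIB3, and Control-shRNA cells a control hairpin. Both were uncloned pools in DMEM, put under hygromycin 24 hours after transfection and selected for 14 days, so every array is of transfected and selected cells. The labels do not say whether the numbered samples were separate cultures, so p-values here reflect only how these samples vary, which may be technical variation. In bulk RNA, fewer cells of a type and less RNA per cell cannot be told apart. Signals are RMA values in log2 units, and a difference is the mean of the TRIB3-shRNA arrays minus the mean of the Control-shRNA arrays.

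The targeted gene went against the labels: TRIB3 read 8.43, 8.48 and 8.27 under the TRIB3-shRNA label and 7.37, 7.14 and 7.48 under the control label, a difference of 1.07 (limma adjusted p = 0.0041). Every direction below therefore rests on the deposited labels, and arrays are named by them. Of 11 colon epithelial markers listed, 7 had a feature, and the median of their mean signals was 8.89, against 5.67 over all genes; EPCAM differed by 0.16 (adjusted p = 0.419). Of these 7 markers CDX1, an intestinal transcription factor, rose (0.69, adjusted p = 0.0372). VIL1, a protein of the brush border, was lower without overlap and did not pass (-0.44, adjusted p = 0.0631). KRT18 was higher without overlap and did not pass either (0.46, adjusted p = 0.0996). The groups were apart upward in 3 of the 7 (EPCAM, KRT18 and CDX1) and downward in 1, beside 16.4% and 15.6% of all genes. The part of these markers' differences in the results below was not tested. Of the 7 measured fibroblast, leukocyte and endothelial markers, CD68 stood at the 85.9th percentile of all genes, and the other 6 at or below the 27.8th. Array medians over all genes ran from 5.62 to 5.67 under the TRIB3-shRNA label and from 5.69 to 5.70 under the control label. The 75th percentiles ran from 7.047 to 7.149 and from 7.155 to 7.235, so the groups were apart in these measures too. Over all genes, 9.64% passed a Benjamini-Hochberg adjusted p of 0.05 in limma's moderated test (484 higher and 951 lower in the arrays labelled TRIB3-shRNA). That split moved to 853 higher and 825 lower when each array was centred on its 75th percentile, to 659 and 818 with median centring and to 588 and 821 with quantile normalization.

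The mitochondrial ribosome translates the few messenger RNAs that mitochondrial DNA encodes, all of them for membrane subunits of the respiratory chain and the ATP synthase. Its RNAs are made inside the organelle, whereas all of its proteins are encoded in the nucleus, made in the cytosol and imported. The lower numbers in the symbols follow those of bacterial ribosomal proteins, and the higher numbers were given to proteins found in the mitochondrial particle. The small subunit reads the messenger RNA, and the large subunit forms the peptide bond and feeds the new chain to the inner membrane.

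All 73 genes gave signal in the upper part of the array range. The mean over the 6 arrays ran from 6.03 (MRPL23) to 10.27 (MRPL3) for MRPL genes and from 6.73 (MRPS14) to 10.56 (MRPS21) for MRPS genes, against a median of 5.67 over all genes. The other brightest features were those of MRPL58, which encodes a peptidyl-tRNA hydrolase built into the large subunit (9.99), MRPL45, a protein at the exit of the peptide tunnel (9.97), MRPS15 (10.34) and MRPS5 (10.02). The other dimmest were those of MRPL52 (6.09), MRPL22 (6.16), MRPS27, a protein with pentatricopeptide repeats (6.88), and MRPS33 (6.92). Features respond differently to the same amount of RNA, so this order is one of signal and not of RNA. No gene of the family lay below the median of all genes, and the spread between replicates was small: the median SD within a group was 0.12 for MRPL and 0.11 for MRPS genes, against 0.19 over all genes.

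Among the 25 MRPS genes the test called 2 that rose and 2 that fell, and left 21 uncalled. Of the 48 MRPL genes, 0 rose and 0 fell (limma, lowest adjusted p 0.0589). Together 4 of 73 genes were called, or 5.48%, beside 9.64% of all genes tested (3.25% higher and 6.39% lower). At an unadjusted limma p under 0.05 there were 10 MRPL genes higher and 1 lower, and 6 MRPS genes higher and 2 lower, 19 of 73 in all, where the share over all genes was 28.8% (12.7% higher and 16.1% lower). The 95% interval of the difference lay inside a 2-fold change either way for 47 of 48 MRPL and 23 of 25 MRPS genes. The exceptions were MRPL42, MRPS12 and MRPS33.

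**Figure D1:**
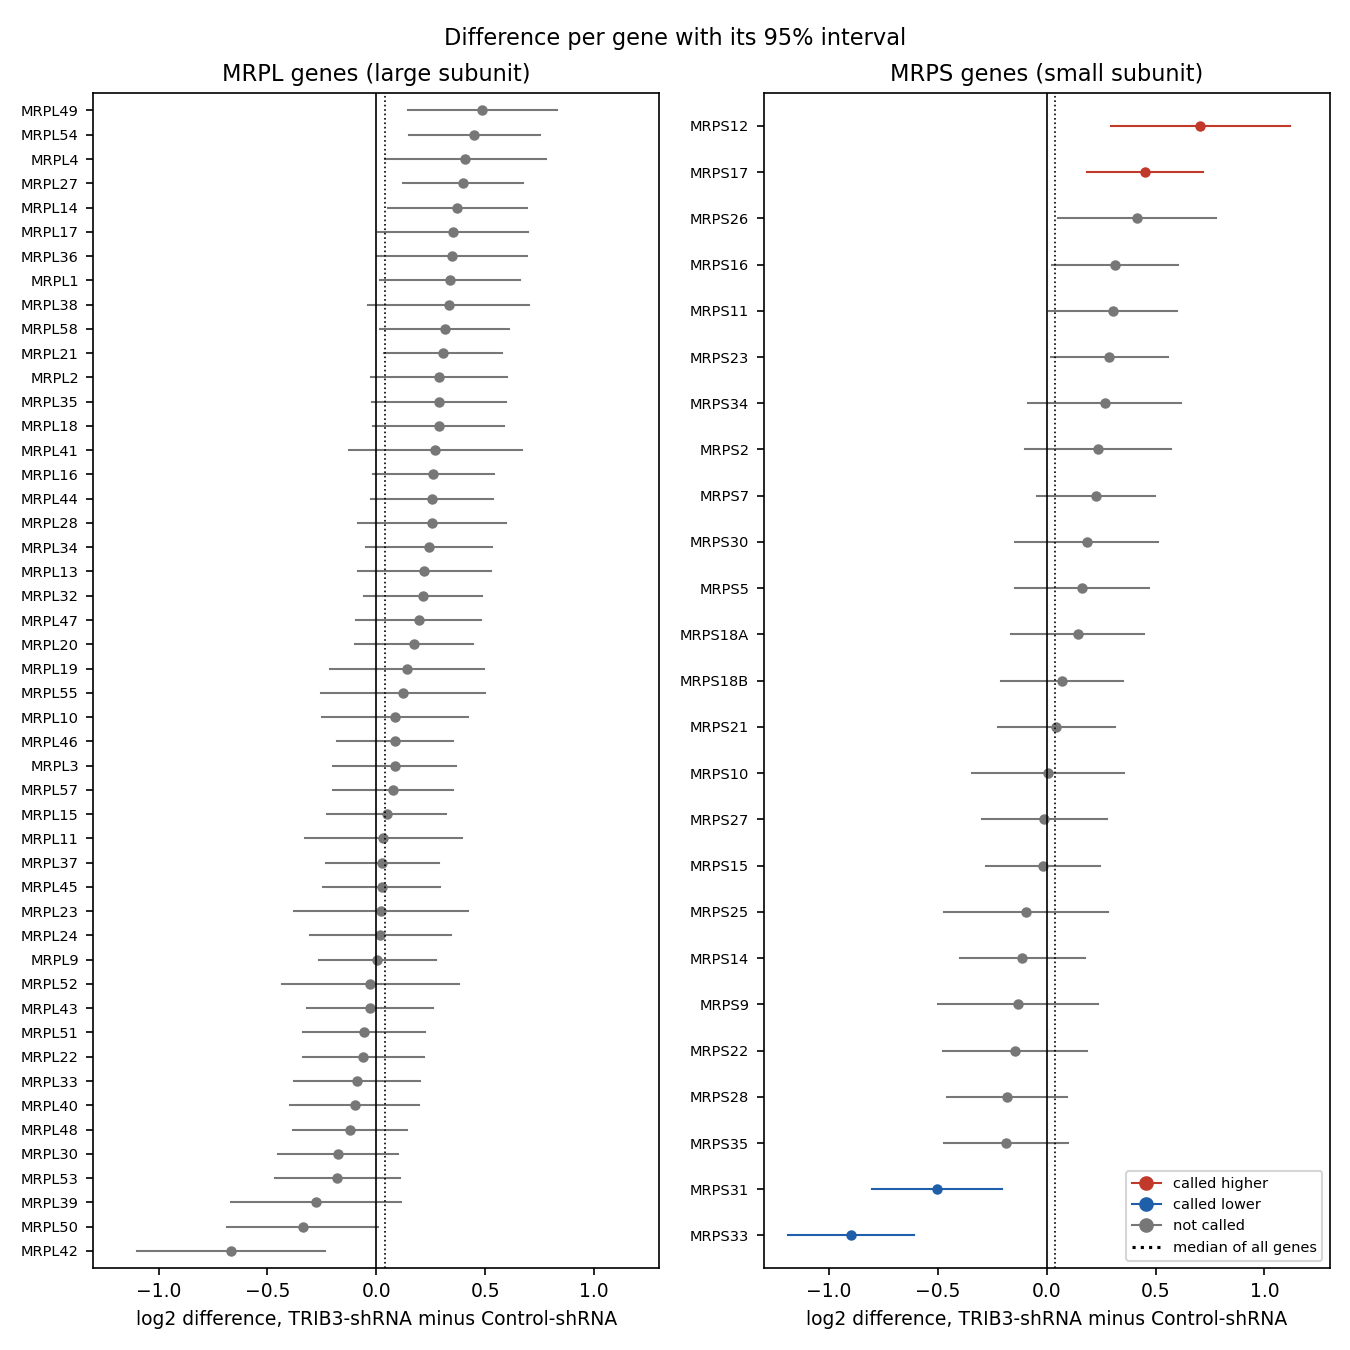
Difference in log2 signal (horizontal axis) for each MRPL gene (left panel) and each MRPS gene (right panel), ordered by size, with its 95% interval from limma (lines) and the median of all genes, 0.04 (dotted line). Red and blue points are the 4 genes called at an adjusted p of 0.05, all of them MRPS genes; 36 of 48 MRPL and 15 of 25 MRPS points lie above 0.

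MRPS33 encodes a small subunit protein without a number from the bacterial set. Its signal was 6.36, 6.48 and 6.56 under the TRIB3-shRNA label and 7.24, 7.40 and 7.46 under the control label. Every TRIB3-shRNA array lay below every control array, with a gap wider than the range of either group. MRPS33 fell by 0.90 log2 units (SE 0.13, 95% interval -1.19 to -0.61, 1.87-fold, limma adjusted p = 0.00632), the largest difference in the family. It passed the test under all 19 alternatives at that threshold, with adjusted p from 0.00182 to 0.0441. MRPS33 lies on chromosome 7, in a stretch of 371 measured genes from ZP3 to DYNC2I1 that had been singled out earlier from these same data for its low median difference. Of its 292 other protein-coding genes 38.7% were called lower, with a median difference of -0.32, against 7.11% and 0.03 over all protein-coding genes. The part of that stretch in the fall of MRPS33 was not tested. MRPS17 and MRPL32, the other family members on chromosome 7, lie outside it.

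MRPS31 encodes another small subunit protein numbered beyond the bacterial set. It read 6.83, 6.71 and 6.83 under the TRIB3-shRNA label and 7.37, 7.40 and 7.12 under the control label. The groups did not overlap, and control array 3 came nearest to the other group. MRPS31 fell by 0.51 log2 units (SE 0.13, 1.42-fold, limma adjusted p = 0.0456). This call lay close to the threshold and was lost with quantile normalization (adjusted p = 0.0816), median centring (0.0634) and centring on the 75th percentile (0.0808), over a range of 0.00703 to 0.177 in its alternatives. It was also lost without any of TRIB3-shRNA arrays 1 (0.101) and 2 (0.142) and Control-shRNA arrays 1 (0.172) and 2 (0.177). RefSeq lists 3 pseudogenes of MRPS31. The feature annotated to MRPS31P5, a transcribed relative, read 4.85, 4.66 and 5.12 against 5.58, 5.50 and 4.91, a difference of -0.45 (adjusted p = 0.176) with overlapping groups. Cross-hybridization between such copies was not tested.

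MRPS12 encodes the counterpart of bacterial S12, which lines the decoding centre and is the protein altered in streptomycin-resistant bacteria. It read 8.29, 7.76 and 7.69 under the TRIB3-shRNA label and 7.17, 7.07 and 7.38 under the control label. The groups did not overlap, but array 1 of the TRIB3-shRNA group stood well above the other two. MRPS12 rose by 0.71 (SE 0.18, 95% interval 0.29 to 1.12, 1.63-fold, limma adjusted p = 0.0439), and by 0.52 without that array (adjusted p = 0.105). The call was also lost without TRIB3-shRNA array 2 (0.0903) and without Control-shRNA array 1 (0.148) or 2 (0.167).

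MRPS17 encodes the counterpart of bacterial S17, an early-binding protein of the small subunit. It read 8.49, 8.47 and 8.47 under the TRIB3-shRNA label and 7.96, 8.00 and 8.11 under the control label. The 3 TRIB3-shRNA values were nearly equal and all above the control range. MRPS17 rose by 0.45 (SE 0.12, 1.37-fold, limma adjusted p = 0.0456). Its call was lost without TRIB3-shRNA array 1 (0.117) or 2 (0.127) and without Control-shRNA array 1 (0.178) or 2 (0.163). RefSeq lists 6 pseudogenes of MRPS17, none with a feature analysed here.

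**Figure D2:**
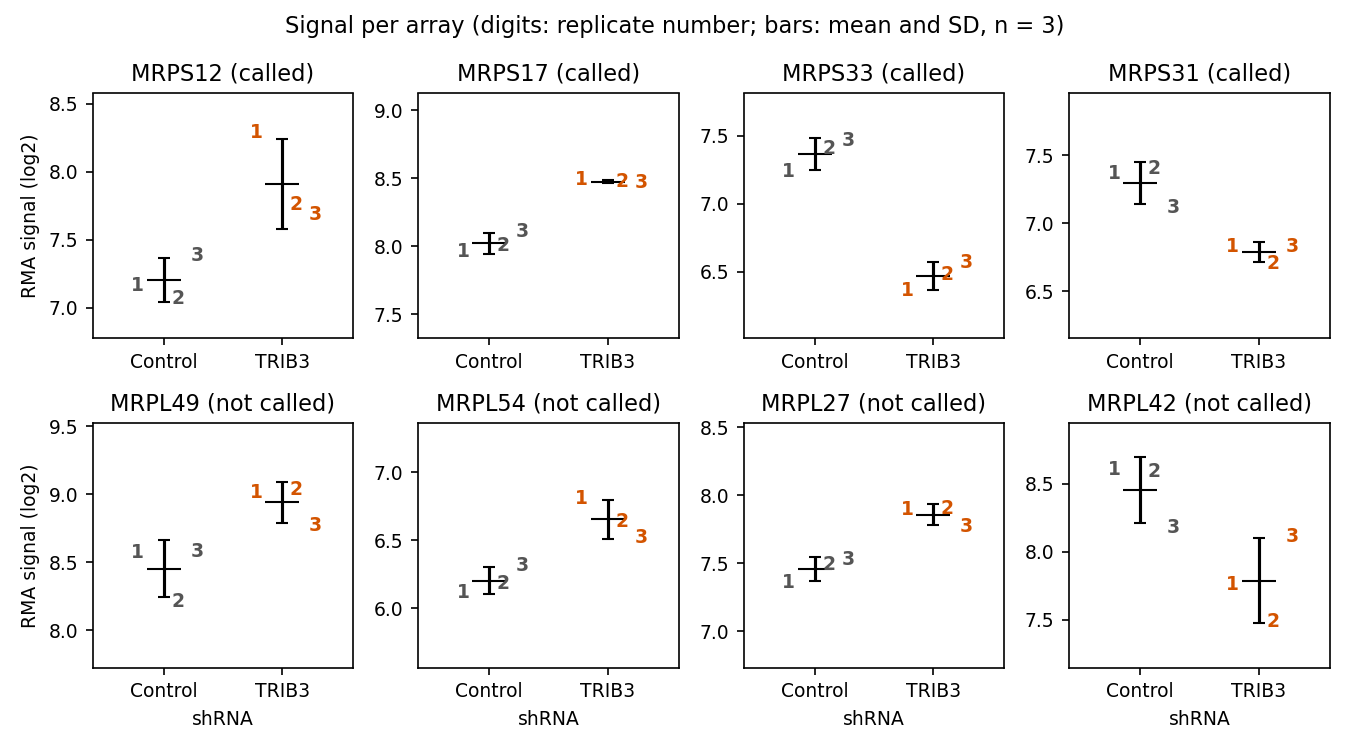
RMA signal on the log2 scale (vertical axes, each spanning the same range) in Control-shRNA and TRIB3-shRNA arrays for the 4 called genes (top row) and the 4 MRPL genes with the lowest adjusted p (bottom row). Digits are single arrays by replicate number, and bars give the mean and SD of 3 arrays; the 3 arrays of each group do not overlap in any of the 8 panels, and array 3 of 1 or both groups lies nearest to the other group in all of them.

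The promoters of the 4 called genes are shown because they are the genes whose difference passed the test. They come from RefSeq (GRCh38.p14), run from 160 bases before the annotated start to 20 bases from it on, and are written 5′ to 3′ on the strand of the gene. Capitals mark matches to 1 of 5 motifs searched on both strands: NRF1 (GCGC, any base, then TGCGC), the core of ETS family factors such as GABPA (CCGGAAG), YY1 (AANATGGCG), the E-box (CACGTG) and the cyclic AMP response element, CRE (TGACGTCA).
MRPS12, chr19:38930784-38930963, plus strand: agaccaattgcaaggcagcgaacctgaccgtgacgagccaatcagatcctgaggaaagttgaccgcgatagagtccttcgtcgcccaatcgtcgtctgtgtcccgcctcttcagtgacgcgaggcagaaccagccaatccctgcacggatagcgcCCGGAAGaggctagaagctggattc
MRPS17, chr7:55951717-55951896, plus strand: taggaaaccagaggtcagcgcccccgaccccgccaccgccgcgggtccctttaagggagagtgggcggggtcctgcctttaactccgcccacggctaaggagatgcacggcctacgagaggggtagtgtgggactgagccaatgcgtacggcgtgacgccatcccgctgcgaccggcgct
MRPS31, chr13:40771171-40771350, minus strand: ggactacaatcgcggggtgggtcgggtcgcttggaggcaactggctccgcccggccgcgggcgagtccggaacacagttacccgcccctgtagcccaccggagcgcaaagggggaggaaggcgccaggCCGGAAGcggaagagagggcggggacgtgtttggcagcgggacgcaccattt
MRPS33, chr7:141014933-141015112, minus strand: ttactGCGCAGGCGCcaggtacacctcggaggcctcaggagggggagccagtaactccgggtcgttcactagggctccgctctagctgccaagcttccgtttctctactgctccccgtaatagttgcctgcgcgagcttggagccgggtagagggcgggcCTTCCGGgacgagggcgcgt
Counting from the start, an ETS match began at base -5 in MRPS12, at base -32 in MRPS31 and at base 1 in MRPS33. MRPS33 also had an NRF1 match from base -155 to -146. The MRPS17 window held none of the 5 motifs, which says only that these letters are not in it. ETS matches were thus found in 1 gene that rose and in both that fell.

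Among MRPL genes the widest differences stayed short of the threshold. MRPL42, a large subunit protein with a number beyond the bacterial set, read 7.76, 7.49 and 8.11 under the TRIB3-shRNA label and 8.60, 8.59 and 8.17 under the control label. The groups did not overlap, but both arrays numbered 3 lay close together. The difference was -0.67 (SE 0.19, 95% interval -1.10 to -0.24, limma adjusted p = 0.0589). Its adjusted p ran from 0.00554 to 0.2 over the alternatives and passed in 7 of them, for example without TRIB3-shRNA array 3 (0.0172) and without Control-shRNA array 3 (0.0412). The feature annotated to the pseudogene MRPL42P5 was lower too, at 3.55, 3.19 and 4.15 against 4.79, 4.82 and 4.65, and it fell by 1.13 log2 units (adjusted p = 0.0189). The TRIB3-shRNA mean of MRPL42P5, 3.63, lay below the 25th percentile of every array, so the size of that fall is not settled. RefSeq lists 6 pseudogenes of MRPL42, and how far the features of gene and copy share signal was not tested.

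MRPL49 had the largest positive difference of the large subunit. It read 9.02, 9.04 and 8.77 against 8.57, 8.21 and 8.58 in the control arrays, a difference of 0.49 (SE 0.15, adjusted p = 0.0743). MRPL54 read 6.81, 6.63 and 6.52 against 6.11, 6.18 and 6.31, a difference of 0.45 (SE 0.13, adjusted p = 0.0632). MRPL27, the counterpart of bacterial L27 whose tail reaches the peptidyl transferase centre, read 7.90, 7.91 and 7.77 against 7.36, 7.49 and 7.53, a difference of 0.40 (SE 0.12, adjusted p = 0.0724). For these 3 genes every TRIB3-shRNA array lay above every control array. MRPL54 passed the test in 7 of 19 alternatives and MRPL49 and MRPL27 in 6 each. MRPL4 (0.41, adjusted p = 0.137), whose bacterial counterpart lines the peptide tunnel, and MRPL14 (0.37, adjusted p = 0.122), the counterpart of an intersubunit bridge protein, completed the 5 largest positive differences.

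On the negative side, MRPL42 was followed by MRPL50 (-0.34, adjusted p = 0.184), MRPL39 (-0.28, adjusted p = 0.319), MRPL53 (-0.18, adjusted p = 0.383) and MRPL30 (-0.18, adjusted p = 0.369). In the small subunit the next positive differences were those of MRPS26 (0.41, adjusted p = 0.128), MRPS16 (0.31, adjusted p = 0.143) and MRPS11 (0.31, adjusted p = 0.159). The next negative ones were those of MRPS35 (-0.19, adjusted p = 0.362), MRPS28 (-0.18, adjusted p = 0.351) and MRPS22 (-0.15, adjusted p = 0.548). Among the bright features, the differences of MRPL3 (0.08), MRPL45 (0.02), MRPS21 (0.04) and MRPS15 (-0.02) had 95% intervals no wider than -0.28 to 0.37. Those of MRPS5 and MRPL58, the remaining bright features, were 0.16 and 0.31. Among the dim ones, MRPL23 differed by 0.02, MRPL52 by -0.03, MRPL22 by -0.06, MRPS27 by -0.01 and MRPS14 by -0.11.

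In 4 genes more than 1 feature was annotated. The 7 features of MRPS18B held the same value on each array and differed by 0.07. The second features of MRPS16 (0.42 against 0.31) and MRPL44 (0.42 against 0.26) had the same direction as the brightest, the latter at a signal of 2.41, under the 25th percentile of every array. MRPS2, the counterpart of bacterial S2, differed by 0.24 in its brightest feature and by -0.02 in the other.

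Most of the 73 differences were above 0, and 2 of those passed the test gene by gene. The median difference was 0.13 over MRPL genes and 0.07 over MRPS genes, beside 0.04 over all genes. Differences above 0 were found in 36 of 48 MRPL genes and 15 of 25 MRPS genes, against 54.9% of all genes. The TRIB3-shRNA arrays lay wholly above the control arrays in 17 MRPL and 7 MRPS genes and wholly below in 4 of each. Over all genes the groups were apart in 32.0% (16.4% upward and 15.6% downward). With MRPS18A and MRPS30 counted in the large subunit, the medians were 0.14 and 0.04. The medians stayed above 0 in all alternatives run. With arrays centred on their 75th percentile the median was 0.14 for all genes, 0.24 for MRPL genes and 0.17 for MRPS genes. In that setting 3 of 48 MRPL genes were called, all higher, and 3 of 25 MRPS genes, 2 higher and 1 lower. Of all 14884 genes, 853 were then called higher and 825 lower.

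The deviations were not even over arrays. The mean deviation of the 48 MRPL genes from their own 6-array means was 0.12, 0.06 and 0.00 in TRIB3-shRNA arrays 1, 2 and 3 and -0.06, -0.08 and -0.03 under the control label. For the 25 MRPS genes it was 0.08, 0.01 and -0.00 against -0.02, -0.02 and -0.05. TRIB3-shRNA array 1 was thus the highest for both subunits, and TRIB3-shRNA array 3 lay at about the family's own mean. With both arrays numbered 3 left out, 9 of 48 MRPL genes were called (7 higher, 2 lower) and 6 of 25 MRPS genes (4 higher, 2 lower). Calls over all 14884 genes went from 1435 (484 higher, 951 lower) to 3392 (1204 higher, 2188 lower).

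Numbering divided the genes further. This split was chosen with the values known and is given without a test. The 27 MRPL genes numbered to 36 had a median difference of 0.22, with 24 above 0, and the 21 numbered from 37 a median of 0.03, with 12 above 0. The 14 MRPS genes numbered to 21 had a median of 0.15, with 11 above 0, and the 11 numbered from 22 a median of -0.10, with 4 above 0. Both genes that rose, MRPS12 and MRPS17, have a bacterial number, and both that fell, MRPS31 and MRPS33, do not. Median gene spans, the stretch of genome from first to last base of a gene, were 8.27 and 7.91 kb for the MRPL classes and 9.57 and 15.3 kb for the MRPS classes.

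**Figure D3:**
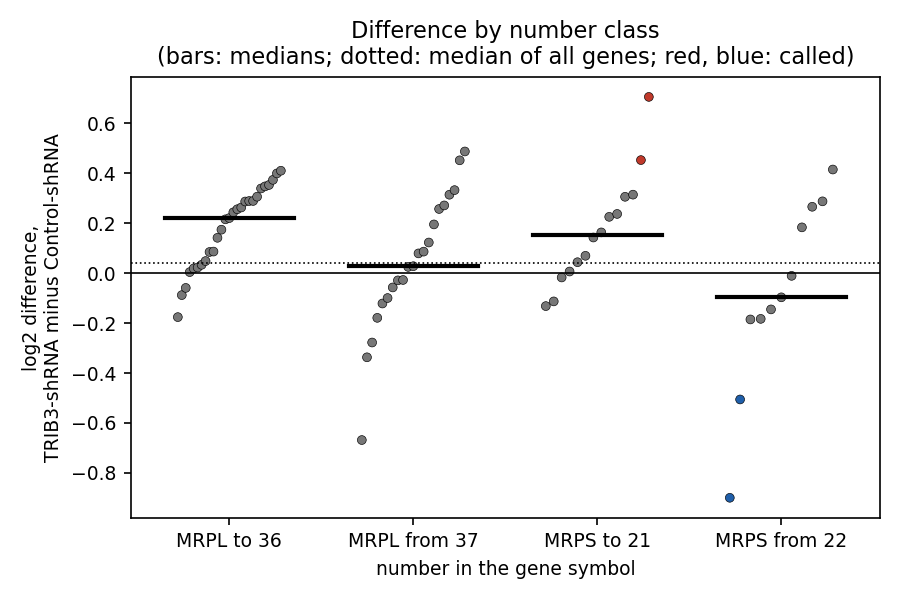
Difference in log2 signal (vertical axis) of each gene in 4 classes by the number in its symbol (horizontal axis), with class medians (bars) and the median of all genes (dotted line). The medians are 0.22, 0.03, 0.15 and -0.10 from left to right, and called genes (red higher, blue lower) lie in the MRPS classes.

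Gene span moved with the difference. Across the 73 genes, which share the same 6 arrays, Pearson's r between log10 span and difference was -0.36 and Spearman's rho -0.39; for the 25 MRPS genes r was -0.57 and rho -0.69, and for the 48 MRPL genes -0.20 and -0.18. Over all genes with a span these were -0.21 and -0.24. The median difference was 0.26 in the 20 genes under 5 kb, 0.16 in the 36 genes of 5 to 20 kb and -0.06 in the 17 genes of 20 kb or more. In all genes of those spans it was 0.11, 0.10 and -0.04. MRPS12 spans 2.23 kb and MRPS17 4.62 kb, whereas MRPS33 spans 12.3 kb, MRPS31 42.1 kb and MRPL42 48.7 kb. With each array's trend on span removed, MRPS33 kept its call (-0.97, adjusted p = 0.0049). MRPS12 (0.60, adjusted p = 0.0529), MRPS17 (0.35, adjusted p = 0.0825) and MRPS31 (-0.44, adjusted p = 0.0583) did not, and the medians were 0.10 for MRPL and 0.08 for MRPS genes.

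**Figure D4:**
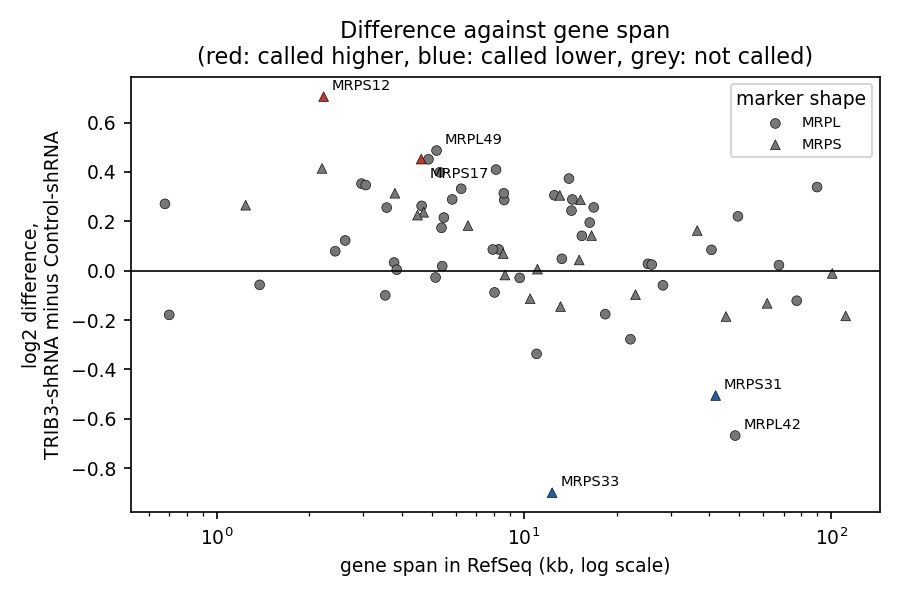
Difference in log2 signal (vertical axis) against gene span in RefSeq (horizontal axis, log scale) for MRPL genes (circles) and MRPS genes (triangles). Differences above 0 number 17 of 20 genes under 5 kb and 7 of 17 from 20 kb on, where over all genes they number 2134 of 3250 and 3452 of 7565; the called genes are coloured.

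The promoters of the family shared sequence features. Of the 73 genes, 65 matched an entry of 300 bases in the RefSeq promoter table. The ETS core was found in 28 of them (43.1%), against 15.6% of the 9707 promoters of protein-coding genes tested and 10.7% of all 27305 promoters. The YY1 motif was found in 17 (26.2%), against 5.46% and 3.37%. NRF1 matched in 8 (12.3%, against 9.10% and 6.28%), the E-box in 5 (7.69%, against 9.10% and 7.43%) and CRE in 0 (against 2.72% and 1.98%). The median GC content was 60.3% in the family and 63.7% in the protein-coding genes tested. Windows of 10 bases either side of a match are shown for 8 genes not called, with differences above and below 0, to show the bases around each match. The capitals are fixed by the search and mark only the match at the centre of each window. The MRPS22 window also holds another ETS match, from base -79 to -73, which is left in lower case.
MRPL27, ETS family, chr17:50373176-50373202, minus strand: cttttcgagaCCGGAAGtgagtgatcg
MRPL54, ETS family, chr19:3762651-3762677, plus strand: ccactgacgtCTTCCGGaaacgtgcac
MRPS26, ETS family, chr20:3046005-3046031, plus strand: ccccgcgccgCTTCCGGggcacggtgg
MRPL53, ETS family, chr2:74472736-74472762, minus strand: cagccggcggCCGGAAGtctatcccgc
MRPS22, ETS family, chr3:139343897-139343923, plus strand: ctataagggcCCGGAAGacttccggcc
MRPL42, YY1, chr12:93467512-93467540, plus strand: ggattgaaacAAGATGGCGggttcgtggt
MRPL50, YY1, chr9:101398577-101398605, minus strand: gatctcatcgAAGATGGCGgcgcgatctg
MRPS18B, YY1, chr6:30617853-30617881, plus strand: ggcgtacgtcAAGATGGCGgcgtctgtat
Genes with and without a match overlapped in their differences. The median difference was 0.11 in the 28 genes with an ETS match and 0.12 in the 37 without. It was 0.03 in the 17 genes with a YY1 match and 0.17 in the 48 without, with ranges of -0.67 to 0.35 and -0.90 to 0.71. A match describes the letters of the promoter and not binding of a factor. Of the factors themselves, NRF1, whose gene lies in the chromosome 7 stretch of MRPS33, differed by 0.14 (adjusted p = 0.575) and YY1 by 0.16 (adjusted p = 0.436). GABPA, named above for the ETS core, had no feature analysed here.

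**Figure D5:**
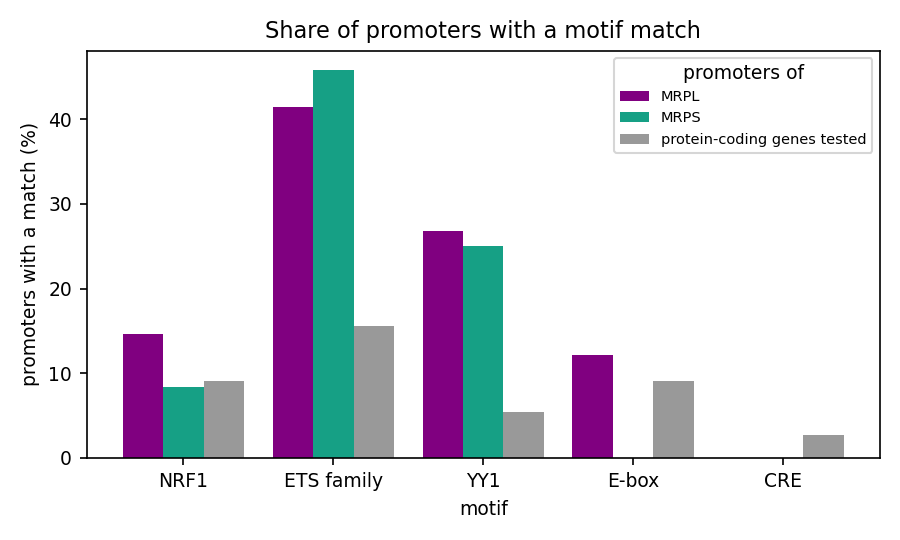
Share of promoters with at least 1 match (vertical axis, %) for 5 motifs (horizontal axis) in 41 MRPL promoters (purple), 24 MRPS promoters (green) and the 9707 promoters (grey) of protein-coding genes tested. ETS family matches reach 41.5% and 45.8% in the subunits against 15.6%, and YY1 matches 26.8% of MRPL promoters against 5.46%.

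Mitoribosomal proteins with other names had differences below 0 and did not pass the test. Of 5 listed, 3 were measured: PTCD3, a pentatricopeptide repeat protein of the small subunit (-0.63, adjusted p = 0.0563), DAP3, a GTP-binding small subunit protein (-0.15, adjusted p = 0.499), and CHCHD1 (-0.06, adjusted p = 0.781). PTCD3 read 7.67, 8.00 and 8.21 against 8.78, 8.66 and 8.34, with no overlap.

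Of 28 genes of mitoribosome assembly and ribosomal RNA modification listed, 24 were measured. Of the 24, 1 rose and 2 fell, with 21 uncalled (12.5% called, median 0.06), a share near the 9.64% of all genes. GTPBP10, a GTPase of large subunit maturation, fell by 1.15 log2 units (SE 0.16, adjusted p = 0.00562), and lies in the same chromosome 7 stretch as MRPS33. METTL15, which methylates the small subunit RNA, fell by 0.96 (adjusted p = 0.0361). RBFA, a factor of small subunit maturation, rose by 0.74 (SE 0.13, adjusted p = 0.0127). RBFA lies in a stretch of 57 measured chromosome 18 genes from MALT1 to PARD6G, also singled out earlier from these data, whose median difference was 0.29. The part of either stretch in these values was not tested.

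Of 12 translation factors listed, 7 were measured. All 7 had a difference below 0 (median -0.19), as had 6720 of all 14884 genes. Of the 7, 1 fell (14.3%, where 6.39% of all genes were called lower), the release factor gene MTRF1 (-0.82, adjusted p = 0.0334). MTIF2, the initiation factor, stood at -0.75 (adjusted p = 0.0659). Of 13 genes of mitochondrial mRNA handling and protein insertion listed, 10 were measured, with a median of -0.36. PTCD2 fell by 0.87 log2 units (adjusted p = 0.023), 1 of 10 called beside 9.64% of all genes. The other 9, among them LRPPRC (-0.82, adjusted p = 0.0585), did not pass. POLRMT, the mitochondrial RNA polymerase, rose by 0.84 (adjusted p = 0.0118). It was the only call among the 3 measured of 11 listed genes of transcription and DNA maintenance. Over all genes 3.25% were called higher. ESRRA, a nuclear receptor active in mitochondrial biogenesis, rose by 0.64 (adjusted p = 0.032), 1 of 4 measured regulators (10 listed), beside the same 3.25%. Of 22 mitochondrial synthetase and amidotransferase genes listed, 4 were measured (GARS1, KARS1, QRSL1 and GATB) and 0 were called in limma. The other listed genes, among them AARS2, LARS2 and YARS2, had no feature analysed here. At an unadjusted limma p under 0.05 there were 3 of the 4 (1 higher and 2 lower), beside 28.8% of all genes. Median spans were 28.1 kb for the translation factors and 42.1 kb for the mRNA group, against 8.19 kb for MRPL and 12.3 kb for MRPS genes. MTRF1, METTL15, RBFA, PTCD2, POLRMT and ESRRA all lost their calls without TRIB3-shRNA array 2, Control-shRNA array 1 or Control-shRNA array 2. Their adjusted p-values then ran up to 0.139, 0.139, 0.0693, 0.0892, 0.0661 and 0.132. Without TRIB3-shRNA array 1, MTRF1 (0.101), METTL15 (0.107), PTCD2 (0.0611) and ESRRA (0.0894) lost theirs too, and so did ESRRA without Control-shRNA array 3 (0.0514). GTPBP10 kept its call under all 19 alternatives.

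Cytosolic ribosomal proteins are given for comparison. Of 46 measured, 0 rose and 0 fell in limma, where 9.64% of all genes were called. At an unadjusted limma p under 0.05 there were 3 of the 46, beside 28.8% of all genes. Their differences ran from -0.33 to 0.39 over the 46, and the median was -0.01. Their groups were apart upward in 4 genes and downward in 10, beside 16.4% and 15.6% of all genes.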

How the data were processed

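Human HCT-8 RNA was measured on 6 arrays, 3 per group. Per the submitters' processing notes, the authors used RMA and Expression Console 1.4.1, and the deposited values are log2 signals. RMA includes background correction, quantile normalization and probe summary. Scanner files were not used here, and no genome build is named in the sources used here. Of 53617 features, 16098 had 1 gene symbol, 0 several and 37519 none. All 16098 matched a gene identifier in RefSeq (GRCh38.p14), which gave names, spans, neighbours and promoters. The brightest feature per gene was kept (14884 genes).

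The test was limma's (version 3.58.1, R 4.3.3; lmFit and eBayes, two-sided, group as the only term, no filter) over all genes, with Benjamini-Hochberg adjustment and a threshold of 0.05. The steps were tested on simulated data. The number of arrays limits the precision.

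Members, lists and tests were chosen with earlier results of these data known. Named genes were, per subunit, all called genes, the 5 largest rises and falls, the 3 brightest and dimmest and those with several features. They also included called genes of the lists, the mitoribosomal proteins with other names, and TRIB3. Alternatives covered scaling, filters, the variance model, feature choice, gene span (lowess, span 0.3), replicate numbers and left-out arrays. Leaving out both arrays numbered 3 and counting subunits by structure were added after seeing the data.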

Additional observations from a re-analysis of the deposited data

How the results depend on the processing

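With 6 arrays, counts of calls moved with the arrays in the fit. Leaving out single arrays gave 199 to 2696 calls over all genes (1435 with all arrays), 0 to 5 MRPL calls and 1 to 4 MRPS calls. The MRPL median ran from 0.11 to 0.18 and the MRPS median from 0.05 to 0.12. MRPS calls were 1 without TRIB3-shRNA array 1 or 2 or Control-shRNA array 1 or 2, and 5 MRPL genes were called without TRIB3-shRNA array 3. With the replicate number as a block, 402 genes, 0 MRPL and 1 MRPS gene were called. The numbers were not taken as pairs, because the deviations of same-numbered arrays correlated at -0.20, -0.09 and -0.43.

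MRPL calls were 1 with quantile normalization, 3 after centring on the 75th percentile, 3 and 4 with genes above the 25th percentile or the median only, 3 with an intensity trend and 10 with array weights. The MRPL median moved to 0.24 with either quantile normalization or centring on the 75th percentile, and the MRPS median to 0.15 and 0.17. MRPS calls were 1 over all features, 1 with the span trend removed and 1 at an adjusted p of 0.01. All genes gave 4099 calls with array weights, 1355 with the span trend removed and 228 at an adjusted p of 0.01. Over all 53617 features 1041 were called. Without both arrays numbered 3 there were 3392 calls over all genes and 9 MRPL calls, and the MRPL median was 0.20. The causes were not tested. Of 12 named genes called, 3 kept the call at 0.05 under all 19 alternatives (MRPS33, GTPBP10 and TRIB3) and 0 changed sign. Of 33 named genes not called, 10 changed sign under at least 1 alternative, all with a difference of at most 0.08 either way.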

Other observations

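Several members share a promoter region with a gene transcribed the other way. In RefSeq, 20 of 65 members with a promoter entry (30.8%) had a start within 1000 bases of such a gene, against 19.6% of 9707 protein-coding genes tested. Of 10 members with a measured partner, 6 had a difference of the same sign as the partner's. No share of like-signed pairs over all genes is at hand to read this against. MRPL46 (0.09) and MRPS11 (0.31) are each other's partner, with starts 320 bases apart, and both differences were above 0. This pair is therefore counted from both sides among the 10 members and among the 6. MRPL49 (0.49) faces FAU, which encodes a cytosolic small subunit protein fused to a ubiquitin-like one (0.31, adjusted p = 0.133), across 49 bases. MRPS27 (-0.01) faces PTCD2 across 133 bases, and PTCD2 fell by 0.87 log2 units (adjusted p = 0.023), so that partners 133 bases apart differed in size. MRPL57 (0.08) faces the spindle gene SKA3 (-0.52, adjusted p = 0.0687) across 106 bases, with opposite signs. Signs were also opposite for MRPL27 (0.40) and EME1 (-0.22), MRPL37 (0.03) and CYB5RL (-0.28), and MRPL40 (-0.10) and HIRA (0.18). They were alike for MRPL50 (-0.34) and ZNF189 (-0.56) and for MRPS2 (0.24) and PIERCE1 (0.26).

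The antisense RNAs MRPL20-AS1 (-0.23, adjusted p = 0.235) and MRPL23-AS1 (0.11, adjusted p = 0.703) and the pseudogene MRPL45P2 (-0.26, adjusted p = 0.487) did not pass the test. MRPL20 itself stood at 0.17.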
